A study of Mus musculus with 20 samples.

Results

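The liver receives the venous outflow of the gut and carries out lipid, glucose, drug and plasma protein metabolism. The comparison described here is between livers of mice whose epididymal visceral adipose tissue (VAT, the fat pads beside the testes) had been surgically removed and livers of mice that had a sham operation. All mice were male C57BL/6J, ate regular chow until surgery at 8 to 9 months of age, and were then put on a high-fat diet, for a time not given in the sources used here. The sham mice had the abdomen opened without loss of fat, so both groups share the incision, the strain, the sex and the diet, and other visceral fat depots were not described as removed. Total RNA was depleted of ribosomal RNA and sequenced, and 5 livers per group were analysed, 10 of the 20 libraries of the study, the others being subcutaneous fat. The members are all genes that passed a filter on low counts in these 10 livers, 17078 of the 40757 entries of the table. That filter took no account of how genes differed between the groups. The lists of genes below were chosen with earlier results of these data known.

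Growth hormone reaches the liver in pulses in male mice and more evenly in females, and through the kinase JAK2 and the transcription factor STAT5B it sets the sex-biased programme of hepatocytes. It induces Igf1 and also the inhibitors Socs2 and Cish, which feed back on its own receptor. The liver also clears drugs and reactive compounds, with cytochrome P450 enzymes in the oxidation step, UDP-glucuronosyltransferases and glutathione transferases in the conjugation step, and the transcription factor NRF2 inducing many of these genes. The proteasome degrades ubiquitin-tagged proteins, and several groups below belong to these systems.

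Libraries held between 20307159 and 37572706 counts, and the share of counts from the mitochondrial genome ran from 2.65% to 3.37%. Alb (serum albumin, the defining product of hepatocytes) lay between 32476 and 53580 CPM (the count of a gene per library size, after TMM) in all 10 livers, at group means of 46308 ± 6210.3 CPM in sham and 44897 ± 8101 CPM after removal (SD, n = 5). The other named markers, Socs2, Cbx7 and Ugt2b35, were detected in every liver and are described below as results, since they do not define a cell type. The fat markers Adipoq, Lep, Plin1 and Retn reached at most 0.351 CPM in any liver. They were the members of a list of 10 adipocyte markers that did not pass the filter, while 6 passed. The whole list summed to 1492 to 3525 CPM in sham livers and 1408 to 3571 CPM after removal, so not all of its members were near 0. A pair of libraries stood apart. VAT removed liver 3 had the lowest correlation of log2 CPM with its group mates, 0.963. It differed from them by more than 2-fold in 326 of the 10348 genes that averaged 5 CPM or more. It also had the fewest counts, 20307159, against 26359022 or more in every other liver. Whether depth had a part in its values was not tested. Sham liver 5 had a correlation of 0.975 and 301 such genes, and larger moves of a count with either or with another liver left out are given beside it. List counts of 3 or fewer below rest on few genes, and many moved by more than 1.5 times with single livers left out. That the 5 livers of a group came from separate mice is not stated in so many words, so p-values measure the spread between these libraries.

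After Benjamini-Hochberg adjustment at 0.05, edgeR's quasi-likelihood test called 0 genes higher and 0 lower, 0% of those tested in each direction. At an unadjusted p under 0.05 it had 799 genes higher (4.68% of all genes tested) and 892 lower (5.22%), and 160 genes (0.937%) had all 5 VAT removed livers above all 5 sham livers while 257 (1.5%) had all 5 below. These shares are the background set beside each list of genes. Since the lists were chosen with earlier results known, a list above its share is a description and no test of that list. DESeq2 called 89 higher (0.521%) and 131 lower (0.767%), limma-voom 1 and 2, and voom with sample weights 4 and 4. Genes are therefore described as higher or lower by their values, and the words carry no call of the main test. The median log2 difference (VAT removed minus sham) over all genes was 0.01. Of the 17078 genes tested 8913 had a difference above 0 and 8165 below 0. Those numbers are the background for the counts of list members with a higher or lower mean.

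Cbx7 had the smallest p of the genes with higher values. It (chromosome 15, 79915807 to 79971119 in GRCm38, protein-coding) encodes a chromodomain subunit of Polycomb repressive complex 1, which reads trimethylated histone H3. Its values were 9.00, 7.62, 10.2, 10.8 and 7.89 CPM in sham livers 1 to 5 and 17.1, 16.1, 16.2, 19.3 and 14.8 CPM in VAT removed livers 1 to 5. Every VAT removed liver lay above every sham liver, with the nearest values at 14.8 and 10.8 CPM. The log2 difference was 0.87 ± 0.12 (SE), with an adjusted p of 0.0557 in edgeR and 5.90e-08 in DESeq2. The fatty acid transport protein gene Slc27a1 (chromosome 8, 71568882 to 71587302) read 7.56, 10.4, 10.1, 7.29 and 8.32 CPM in sham livers and 13.7, 14.6, 12.9, 17.0 and 17.1 CPM after removal. Its groups did not overlap either, and its log2 difference was 0.79 ± 0.13 (edgeR adjusted p = 0.144).

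Fgl1 (chromosome 8, 41191434 to 41215156), which encodes a fibrinogen-like protein secreted by hepatocytes, stood at 86.5, 70.7, 95.1, 97.2 and 92.9 CPM in sham livers and 485, 202, 259.6, 165 and 199 CPM after removal. The groups were apart by 97.2 against 165 CPM at the closest, and VAT removed liver 1 was the highest. The log2 difference was 1.57 ± 0.27 with an edgeR adjusted p of 0.175. Lower-expressed genes with higher values in 5 of 5 VAT removed livers were Lrp2bp, an LRP2-binding protein gene, at 1.08 ± 0.16, Pced1b at 0.79 ± 0.13 and the cell adhesion gene Amigo2 at 0.83 ± 0.15. Camkk2, a calcium-dependent kinase that activates AMPK, was at 12.3 ± 1.38 CPM in sham and 17.3 ± 1.68 CPM after removal. Edges of the ranges of Camkk2 were 14.7 CPM in sham and 16.4 CPM after removal.

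On the lower side, Ugt2b35 (chromosome 5, 87000860 to 87013275), a UDP-glucuronosyltransferase gene, read 104, 86.1, 98.4, 82.5 and 80.9 CPM in sham livers and 47.0, 50.2, 61.1, 50.0 and 59.0 CPM after removal. No VAT removed liver came nearer to sham than 61.1 CPM against 80.9 CPM. The log2 difference was -0.76 ± 0.10, with an adjusted p of 0.0557 in edgeR and 4.79e-08 in DESeq2. Ikbkg (chromosome X, 74393290 to 74453854) encodes NEMO, the regulatory subunit of the kinase complex that activates NF-kappaB. It was at 85.8, 88.0, 87.5, 89.8 and 94.6 CPM in sham and 69.3, 71.7, 69.2, 58.4 and 70.4 CPM after removal, a log2 difference of -0.39 ± 0.07. Its groups were separate although the difference was small, since the SD was 3.37 CPM in sham and 5.35 CPM after removal. Gldc, the glycine decarboxylase of the glycine cleavage system, averaged 263 ± 34.1 CPM in sham and 173 ± 24.0 CPM after removal (-0.61 ± 0.11). Adora1, an adenosine receptor gene, differed by -0.40 ± 0.07, the peroxisomal carrier Slc25a17 by -0.40 ± 0.08, the endoplasmic reticulum protein gene Serp1 by -0.44 ± 0.08, Nubp2, which acts in cytosolic iron-sulfur cluster assembly, by -0.31 ± 0.06, and cytochrome c (Cycs) by -0.33 ± 0.07. VAT removed liver 3 lay on the same side as the rest of its group for these genes.

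**Figure D1:**
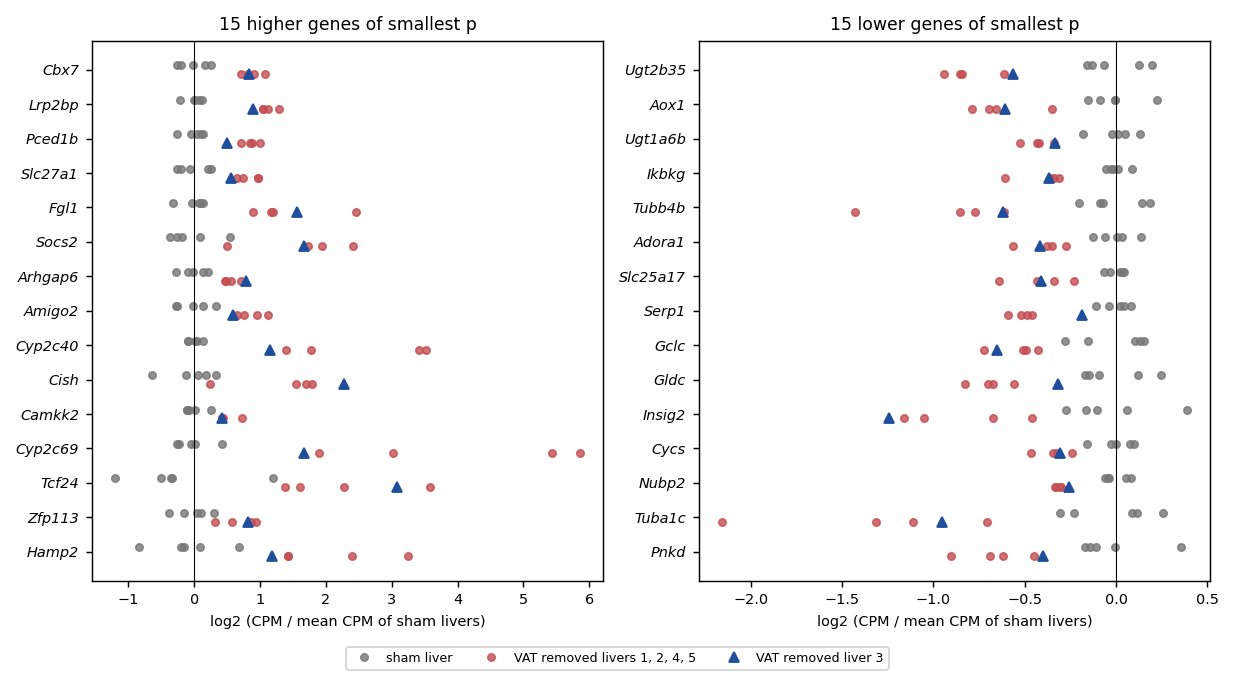
Log2 ratio of each liver's CPM to the mean of the 5 sham livers for the 15 higher (left) and 15 lower (right) genes of smallest p. Grey points are sham livers, red points VAT removed livers 1, 2, 4 and 5, and blue triangles VAT removed liver 3; Socs2 and Cish overlap in VAT removed liver 2, while Cbx7 and Ugt2b35 do not overlap.

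In the growth hormone axis the feedback inhibitors Socs2 and Cish and the growth factor Igf1 had higher means, and the receptor gene differed little. Socs2 (chromosome 10, 95385362 to 95417180) was at 5.17, 3.78, 4.25, 7.04 and 4.03 CPM in sham livers and 18.6, 6.83, 15.4, 16.1 and 25.8 CPM in VAT removed livers. VAT removed livers 1, 3, 4 and 5 were above all sham livers, and VAT removed liver 2 was inside the sham range. Cish (chromosome 9, 107296026 to 107302784) showed the same arrangement, with 3.55, 4.87, 2.48, 4.36 and 4.03 CPM in sham and 12.5, 4.53, 18.6, 11.2 and 13.3 CPM after removal. The log2 differences were 1.77 ± 0.31 and 1.63 ± 0.32, with edgeR adjusted p of 0.175 and 0.219, and 9.83e-06 and 1.77e-04 in DESeq2. Igf1, the growth factor that liver releases under growth hormone, read 377, 552, 436, 501 and 399 CPM in sham and 569, 429, 699, 626 and 637 CPM after removal. Its difference was 0.39 ± 0.14 (edgeR adjusted p = 0.418), and VAT removed liver 2 was again the lowest of its group. Igfals, which encodes the subunit that keeps Igf1 in a circulating complex, was at 43.7 CPM in VAT removed liver 2 and 102 to 121 CPM in the other 4, against 43.6 to 68.0 CPM in sham (0.74 ± 0.24).

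Onecut1, a hepatocyte transcription factor gene induced by growth hormone, averaged 13.9 ± 6.98 CPM in sham and 36.1 ± 17.3 CPM after removal, a log2 difference of 1.37 ± 0.40. The growth hormone receptor gene Ghr differed by -0.05 ± 0.15 and its signal transducer Stat5b by -0.02 ± 0.07. For Ghr the sham livers spanned 354 to 604 CPM and the VAT removed livers 427 to 561 CPM. Of the 19 members of this list, all of which passed the filter, 6 had an unadjusted p under 0.05 on the higher side and 0 on the lower, with a median difference of 0.07. The median was 0.02 without VAT removed liver 3, and 12 members had a higher and 7 a lower mean with all livers. Prlr, the prolactin receptor gene, a relative of Ghr, was at 89.7, 60.9, 84.5, 99.8 and 50.3 CPM in sham and 345, 97.1, 184, 244 and 210.3 CPM after removal (1.49 ± 0.31). VAT removed liver 2 alone touched the sham range there, at 97.1 against 99.8 CPM. Igfals, Ghr, Stat5b and Prlr were picked with their values known, outside the naming rule.

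Start-site sequence of genes of this axis is shown because STAT5 acts through a short palindrome. The letters TTCNNNGAA, searched on both strands, were in 8.29% of 32817 RefSeq windows of 300 bases (250 before the start to 50 after it, GRCm38.p6). The Cish window held 2 matches just after its start, shown in capitals, on the plus strand at chr9:107296619-107296678. Igfals held 1 match in the windows of each of 2 of its 3 starts, at chr17:24877594-24877656 and chr17:24878133-24878221, plus strand. The windows of Igf1, Cux2 and Onecut1 held no match of these letters, and Socs2 had no window to search. A match is a stretch of letters and no measurement of binding.
Cish: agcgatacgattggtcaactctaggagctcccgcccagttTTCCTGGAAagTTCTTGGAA
Igfals, start 1: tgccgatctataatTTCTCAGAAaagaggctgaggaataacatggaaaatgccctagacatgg
Igfals, start 2: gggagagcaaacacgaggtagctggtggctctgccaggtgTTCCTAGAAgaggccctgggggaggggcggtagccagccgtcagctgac

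Genes that differ between the sexes in mouse liver stood apart from sham in VAT removed livers 1, 2, 4 and 5 for most of the genes named here, and VAT removed liver 3 often lay elsewhere. Among female-biased genes, the transcription factor gene Cux2 (chromosome 5, 121856366 to 122050102) was at 1.13, 0.773, 1.52, 1.23 and 0.957 CPM in sham and 125, 2.04, 1.71, 59.7 and 23.1 CPM after removal. All 5 values were above sham, by a wide margin in livers 1, 4 and 5 and narrowly in livers 2 and 3 (5.24 ± 1.18). Cyp2c40 (chromosome 19, 39767071 to 39812814), a cytochrome P450 gene, read 5.77, 4.95, 4.93, 5.33 and 5.42 CPM in sham and 60.5, 13.8, 11.7, 56.5 and 18.1 CPM after removal. Livers 1 and 4 were the highest, and the nearest values of the groups were 11.7 and 5.77 CPM (2.60 ± 0.48, edgeR adjusted p = 0.211, DESeq2 2.26e-06). Its neighbour Cyp2c69 was at 0.899 to 1.44 CPM in sham and 3.43 to 62.7 CPM after removal, and these close paralogues may share reads. Hao2, a peroxisomal hydroxy acid oxidase gene, was at 2.74, 0.401, 2.27, 2.78 and 0.812 CPM in sham and 28.0, 5.62, 1.31, 28.0 and 5.53 CPM after removal. Liver 3 of Hao2 was inside the sham range and the other 4 above it. Acot3, an acyl-CoA thioesterase gene, read 20.3 to 149 CPM in VAT removed livers 1, 2, 4 and 5, 8.78 CPM in liver 3 and 5.63 to 30.3 CPM in sham, so livers 2 and 3 were inside the sham range.

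Of 23 female-biased genes 18 passed the filter, 9 of them with an unadjusted p under 0.05 on the higher side and 0 on the lower, at a median difference of 0.78. limma-voom had 4 on the higher side. The organic ion transporter gene Slc22a26, outside the list, was at 0.464 to 1.06 CPM in sham and 115, 4.16, 2.87, 35.1 and 10.3 CPM after removal (5.37 ± 1.10, edgeR adjusted p = 0.233). Its relative Slc22a27 was at 8.47 to 15.4 CPM in sham, 23.4 to 44.2 CPM in VAT removed livers 1, 2, 4 and 5, and 2.37 CPM in liver 3. Nt5e, the ectonucleotidase that makes adenosine, and Gas6, a ligand of TAM receptor kinases, were at 11.1 and 59.6 CPM in liver 3 against 30.6 to 45.4 and 189 to 231 CPM in the other 4. These 4 genes were picked with their values known.

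Male-biased genes were low in VAT removed livers 1, 2, 4 and 5. Mup20 (chromosome 4, 62050234 to 62054158), which encodes the urinary pheromone darcin, read 1896, 2298, 2050.1, 1476 and 1780.1 CPM in sham and 34.6, 371, 1157, 132 and 398 CPM after removal. Every VAT removed liver was below every sham liver, liver 1 lowest and liver 3 highest (-2.18 ± 0.71, edgeR adjusted p = 0.364). Elovl3, a fatty acid elongase gene, was at 94.6, 57.3, 37.1, 82.4 and 65.4 CPM in sham and 3.55, 4.53, 79.8, 3.38 and 5.09 CPM after removal. For Elovl3 liver 3 was in the sham range and the other 4 were below the lowest sham value. Cyp2d9, a steroid hydroxylase gene, was at 279 to 681 CPM in sham, 99.7 to 176 CPM in livers 1, 2, 4 and 5, and 497 CPM in liver 3. The bile acid and steroid carrier gene Slco1a1 was at 28.3 to 62.8 CPM in sham, 4.09 to 12.9 CPM in the 4 livers and 169 CPM in liver 3. C6, a complement component gene, was at 114 to 167 CPM in sham, 31.9 to 59.5 CPM in the 4 livers and 248 CPM in liver 3.

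Several male-biased genes were higher in liver 3 than in every sham liver. Serpina1e (chromosome 12, 103946931 to 103958975), an alpha-1-antitrypsin gene, read 299.8, 333, 281, 310.3 and 447 CPM in sham and 18.0, 65.6, 3912, 21.01 and 47.7 CPM after removal. The 4 other VAT removed livers were all below sham and liver 3 above it (fitted difference 1.28 ± 1.40). Mup7, a major urinary protein gene, was at 1.37 to 39.6 CPM in sham, 63.2 CPM in liver 3 and 0.287 to 0.703 CPM in the other 4. Hsd3b5, a male-biased steroid dehydrogenase gene, was at 47.8 CPM in liver 3 and at most 1.23 CPM in sham. Egfr, the epidermal growth factor receptor gene, was at 239.5 to 351 CPM in sham, 996 CPM in liver 3 and 120.4 to 188 CPM in the other 4. Of 23 male-biased genes 21 passed the filter, and 4 had an unadjusted p under 0.05 on the lower side and 0 on the higher, with a median of -0.65. Leaving out liver 3 gave 20 on the lower side and a median of -1.97. Elovl3, Slco1a1, C6 and Egfr were picked with their values known.

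**Figure D2:**
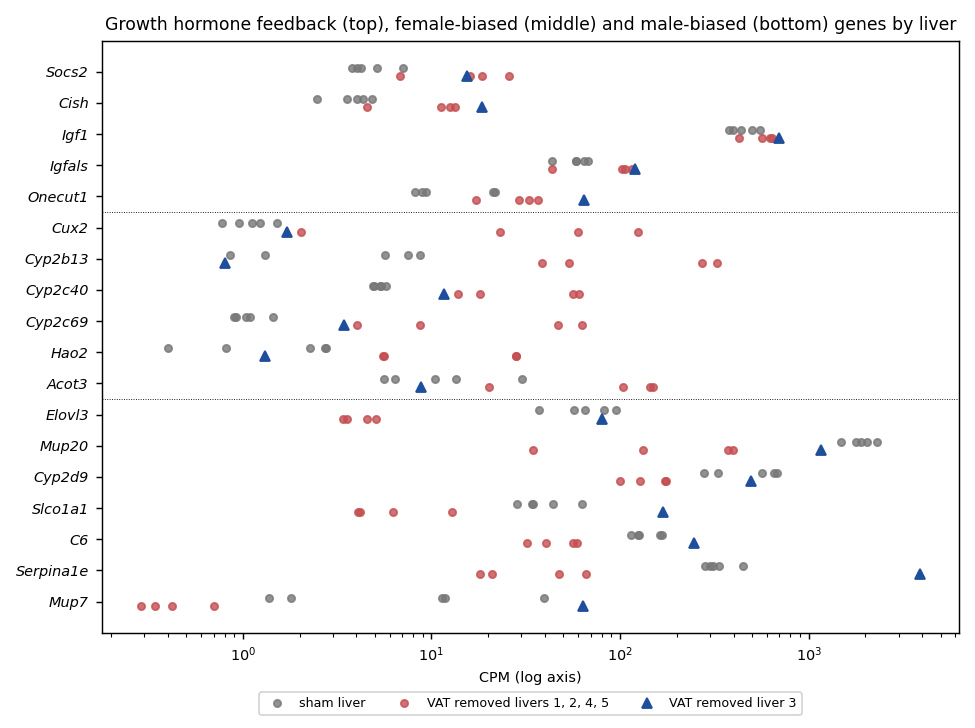
CPM of each liver on a log axis for growth hormone feedback genes (top), female-biased genes (middle) and male-biased genes (bottom). Grey points are sham livers, red points VAT removed livers 1, 2, 4 and 5, and blue triangles VAT removed liver 3. That liver lies with its group for Socs2 and Cish and apart from it for most male-biased genes, as in Serpina1e at 3912 CPM. For Mup20 every VAT removed liver lies below every sham liver.

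With VAT removed liver 3 left out, edgeR called 16 genes higher and 37 lower, a count that depends on setting aside a library whose values were known. Of the 37 lower, liver 3 was within the sham range for 12, above it for 17 and below it for 8, and of the 16 higher it was within the sham range for 7, below for 3 and above for 5, 1 gene being tested only without it. DESeq2 on all 10 livers also called 12 of the 37 and 13 of the 16. Serpina3k, a serine protease inhibitor gene, fell by 1.52 on the log2 scale (adjusted p = 0.0193 in edgeR) in that fit, at 4445 CPM in liver 3. Tdo2, which opens the tryptophan ring on the way to NAD, fell by 0.90 (edgeR adjusted p = 0.0324). Alas2, the aminolevulinate synthase of erythroid cells, fell by 0.93, and the glucuronosyltransferase Ugt2b1 by 0.74. Rcan2, a calcineurin regulator gene, rose by 1.21, and the lipid transporter Abca3 by 0.42. Cbx7 and Ugt2b35 passed as well, at adjusted p of 0.0261 and 0.0193 in edgeR. Apart from Tdo2, Alas2, Cbx7 and Ugt2b35, the genes of this paragraph were picked with their values known.

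Genes of glucuronidation, which attaches glucuronic acid to drugs, bilirubin and steroids, were mostly lower. Of 22 genes 21 passed the filter, and 8 had an unadjusted p under 0.05 on the lower side, 1 on the higher, with 6 whose 5 VAT removed livers were all below sham (median -0.20, -0.27 to -0.17 with each liver left out). DESeq2 called 6 lower and 0 higher. Ugt1a6b (chromosome 1, 88103252 to 88219003), which handles phenols, read 60.4, 59.0, 62.0, 65.5 and 52.8 CPM in sham and 41.6, 44.8, 47.5, 44.4 and 47.4 CPM after removal. All 5 were below sham (-0.41 ± 0.07, edgeR adjusted p = 0.144, DESeq2 9.78e-05). The Ugt1a genes share their last exons, so reads there cannot be split between them. Ugt2b5, Ugt2b36, Ugt2b37 and Ugt2b38, all in the cluster of Ugt2b35, differed by -0.50 ± 0.13, -0.36 ± 0.10, -0.53 ± 0.14 and -0.53 ± 0.14. For Ugt2b5 the ranges were 311 to 392 CPM in sham and 183 to 310.1 CPM after removal. Ugdh, which makes the UDP-glucuronic acid these enzymes use, averaged 218 ± 27.5 CPM in sham and 151 ± 26.4 CPM after removal (-0.53 ± 0.13). The exception was Ugt1a5, at 0.76 ± 0.34, with 23.9 CPM in liver 3 and 70.3 to 92.6 CPM in the other 4. Ugt2b5, Ugt2b36 and Ugt1a5 were picked with their values known. Ugdh is also on the NRF2 list below, and Ugt2b1 and Ugt2b38 are on the male-biased list, so these lists share some members.

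NRF2 targets and glutathione transferases, which defend against electrophiles and oxidants, also leaned lower. All 46 members passed the filter, 39 of them with a lower mean, 19 at an unadjusted p under 0.05 on the lower side and 0 on the higher (median -0.21, -0.28 to -0.19 with each liver left out). In 7 members the groups did not overlap, and DESeq2 called 10 lower and 0 higher. Gclc (chromosome 9, 77754535 to 77794485), the catalytic subunit of the enzyme that starts glutathione synthesis, read 564, 417, 554, 544 and 455 CPM in sham and 359.8, 377, 322, 307 and 355 CPM after removal. The closest values of the groups were 417 and 377 CPM (-0.56 ± 0.11, DESeq2 adjusted p = 2.08e-04). Aox1 (chromosome 1, 58029931 to 58106413), an aldehyde oxidase gene, was at 253, 216, 204, 216 and 195 CPM in sham and 134, 137, 142, 126 and 170.2 CPM after removal. All 5 VAT removed livers were below sham (-0.61 ± 0.10, edgeR adjusted p = 0.144). Glutathione reductase (Gsr) was at 87.2 to 107 CPM in sham and 73.2 to 77.7 CPM after removal, and thioredoxin reductase (Txnrd1) at 162 to 205 and 124 to 149 CPM.

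Conjugating enzymes of this group differed more in size but also varied more. Gsta1 was at 15.3, 68.4, 31.2, 20.5 and 74.2 CPM in sham and 5.69, 11.0, 6.05, 17.1 and 18.9 CPM after removal, groups that overlap through sham liver 1 (-1.83 ± 0.52). Gsta2 was at 15.5 to 40.8 CPM in sham and 5.68 to 15.1 CPM after removal, without overlap (-1.11 ± 0.33), and close paralogues such as these may share reads. Gstp1, also male-biased and one of a set of close copies that may share reads, was at 291 to 378 CPM in sham and 97.2, 164, 287, 152 and 207 CPM after removal. The epoxide hydrolase gene Ephx1 differed by -0.49 ± 0.11. The regulators themselves were near level, with the NRF2 gene Nfe2l2 at -0.15 ± 0.12 and its inhibitor Keap1 at -0.08 ± 0.06, and the target gene Nqo1 at -0.36 ± 0.20 overlapped between groups. Nfe2l2 was at 63.8 CPM in liver 3 and 95.8 to 98.3 CPM in the other 4. Gsta1, Gsta2, Ephx1, Nfe2l2, Keap1 and Nqo1 were picked with their values known.

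Cytochrome P450 genes of families 1 to 3 went both ways. Of 48 genes 46 passed the filter, and 9 were higher and 3 lower at an unadjusted p under 0.05 (6 lower without sham liver 5, 5 without VAT removed liver 3), and the median was 0.03. The higher ones were led by the female-biased Cyp2b13, Cyp2c40 and Cyp2c69. Cyp2b13 read 8.69, 0.859, 5.67, 7.48 and 1.31 CPM in sham and 272, 38.7, 0.807, 325 and 53.9 CPM after removal, with liver 3 the lowest of all 10 (4.86 ± 1.25). Cyp2c68 averaged 66.5 ± 8.81 CPM in sham and 114 ± 36.2 CPM after removal (0.78 ± 0.20), and Cyp2a22, picked with its values known, was at 21.2 CPM in liver 3 and 51.5 to 121 CPM in the other 4, against 24.4 to 34.3 CPM in sham. Cyp2f2, a periportal gene, was lower, at 674, 971, 684, 688 and 784 CPM in sham and 313, 422, 664, 515 and 549 CPM after removal. All 5 of its VAT removed values were below sham, liver 3 closest at 664 against 674 CPM (-0.63 ± 0.19, edgeR adjusted p = 0.309).

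Proteasome subunit genes were lower almost without exception, by small and even amounts. All 39 members passed the filter, 38 had a lower mean after removal, and 23 had an unadjusted p under 0.05 on the lower side and 0 on the higher. The median difference was -0.18, the members ran from -0.32 to 0.04, and the median stayed between -0.20 and -0.16 with each liver left out. In 10 genes every VAT removed liver was below every sham liver, and DESeq2 called 8 lower. Psmd7 (chromosome 8, 107580381 to 107588464), of the lid of the regulatory particle, read 56.5, 52.5, 54.1, 54.4 and 59.9 CPM in sham and 46.3, 44.9, 48.4, 40.8 and 46.4 CPM after removal. The nearest values were 52.5 and 48.4 CPM (-0.29 ± 0.06, edgeR adjusted p = 0.233, DESeq2 0.00600). Psmd14, the deubiquitinase of the lid, was at 32.3 to 38.0 CPM in sham and 26.3 to 32.0 CPM after removal (-0.32 ± 0.07).

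The ATPase ring genes Psmc2, Psmc4 and Psmc5 differed by -0.28 ± 0.06, -0.28 ± 0.07 and -0.25 ± 0.07, and for Psmc2 the values were 62.1, 57.5, 56.2, 57.2 and 57.3 CPM in sham and 50.3, 45.7, 51.5, 42.7 and 49.8 CPM after removal. Psmb5, the chymotrypsin-like catalytic subunit, averaged 37.8 ± 2.25 CPM in sham and 31.5 ± 1.75 CPM after removal (-0.26 ± 0.06). The lid gene Psmd12 differed by -0.23 ± 0.07, the activator Psme4 by -0.20 ± 0.06 and the assembly chaperone Pomp by -0.19 ± 0.06. For Psme4 the 5 sham livers lay at 142 to 161 CPM and the 5 VAT removed livers at 130.2 to 139 CPM. Psmc4, Psmc5, Psmd12, Psme4 and Pomp were picked with their values known. The mean log2 level of the list in VAT removed livers 1 to 5 was -0.16, -0.23, -0.14, -0.21 and -0.11 relative to the sham mean, where the sham livers ran from -0.06 to 0.06.

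Tubulin genes, whose products form microtubules, leaned lower. Of 25 tubulin, actin and related genes 24 passed the filter, 9 with an unadjusted p under 0.05 on the lower side and 0 on the higher, at a median of -0.25 (-0.11 without sham liver 5). In 5 the groups did not overlap, and DESeq2 called 4 lower. Tubb2a (chromosome 13, 34074274 to 34078007) read 272, 231, 301, 224 and 307 CPM in sham and 76.3, 177, 49.4, 60.5 and 148 CPM after removal. Liver 3 was the lowest and liver 2 the highest of the VAT removed values, all under the sham range (-1.38 ± 0.34, edgeR adjusted p = 0.256, DESeq2 0.00423). Tubb4b was at 119, 94.1, 123, 102 and 103 CPM in sham and 70.9, 63.5, 70.6, 40.2 and 60.04 CPM after removal (-0.83 ± 0.14), and Tuba1c at 70.4, 69.1, 77.6, 52.6 and 55.4 and 30.1, 39.9, 33.6, 14.6 and 26.2 CPM (-1.17 ± 0.23). For both genes liver 4 was the lowest. Tubb2b, close to Tubb2a in sequence, was at 11.1 to 18.3 CPM in sham and 2.37 to 10.7 CPM after removal, and these close copies may share reads.

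**Figure D3:**
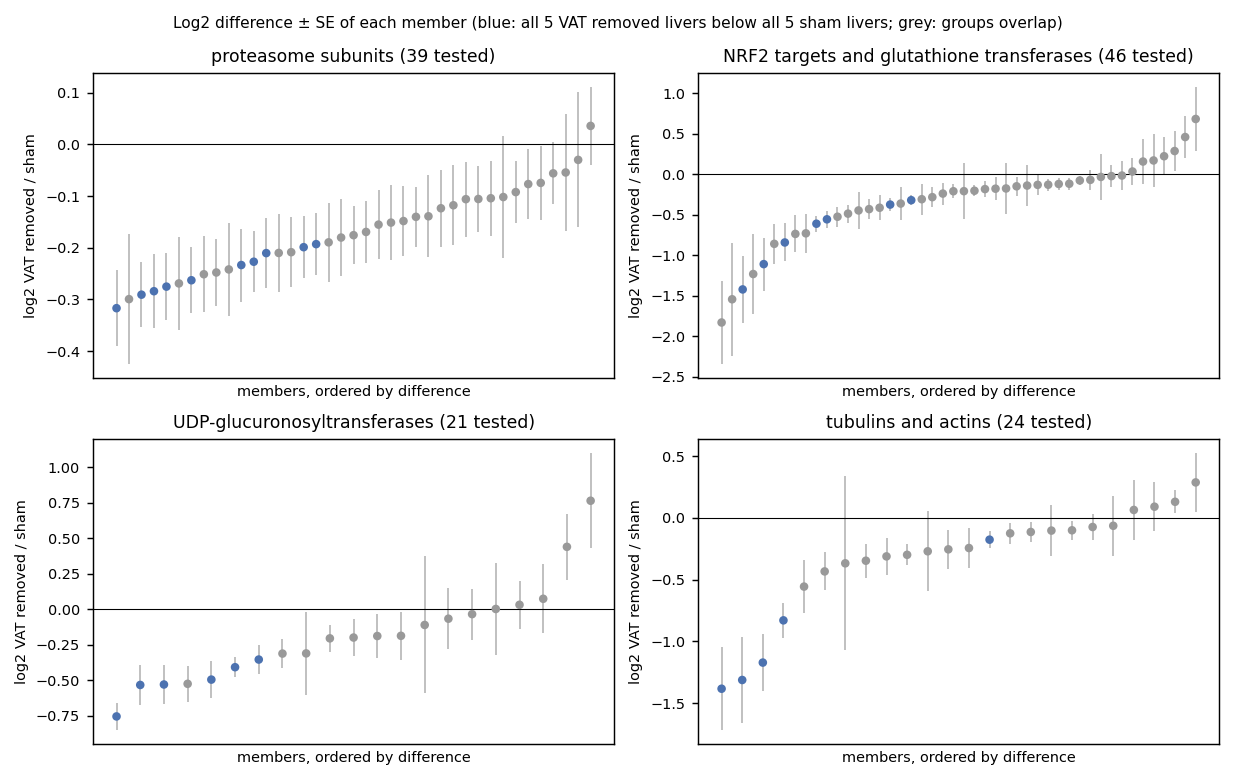
Log2 difference (VAT removed over sham) ± SE of every tested member of 4 groups of genes, each ordered by difference. Blue points are genes whose 5 VAT removed livers all lie below the 5 sham livers and grey points are genes whose groups overlap; among proteasome subunits 38 of 39 points lie below 0.

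Clock genes are printed with their promoters because hepatic transcription follows the time of day, with the hour at which livers were taken not given in the sources used here. The E-box CACGTG, bound by the CLOCK and BMAL1 pair, was in 7.15% of the windows on either strand, and the D-box (TTACGCAA, TTACGTAA, TTATGCAA or TTATGTAA), bound by DBP and its relatives, in 1.93%. Per3 held 2 D-boxes, in capitals, on the minus strand at chr4:151044776-151044910, and Tef held 1 E-box before each of its 2 starts, plus strand, at chr15:81802506-81802591 and chr15:81811236-81811321. The windows of Arntl, Clock, Insig2 and Tubb2a held none of the 3 motifs in these letters.
Per3: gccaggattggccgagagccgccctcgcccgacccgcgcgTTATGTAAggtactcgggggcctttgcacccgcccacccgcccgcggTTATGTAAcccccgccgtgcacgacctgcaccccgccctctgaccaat
Tef, start 1: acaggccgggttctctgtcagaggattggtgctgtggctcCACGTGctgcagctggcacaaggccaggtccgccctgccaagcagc
Tef, start 2: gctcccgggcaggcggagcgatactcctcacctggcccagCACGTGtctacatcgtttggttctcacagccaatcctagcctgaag

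Arntl (chromosome 7, 113207465 to 113314126), which encodes BMAL1, read 11.9, 18.4, 5.35, 6.53 and 10.1 CPM in sham and 3.13, 6.14, 5.90, 2.38 and 2.49 CPM after removal. The groups overlapped, through sham liver 3 and VAT removed livers 2 and 3 (-1.39 ± 0.39, edgeR adjusted p = 0.309, DESeq2 0.0233). Its partner Clock differed by -0.34 ± 0.10. Per3 (chromosome 4, 151003652 to 151044665), a repressor of the pair, was at 43.3, 66.0, 84.6, 68.8 and 40.5 CPM in sham and 95.5, 95.2, 75.4, 148 and 116 CPM after removal, and its groups overlapped through sham liver 3 and VAT removed liver 3 (0.81 ± 0.23). Of the 19 core clock genes 1 was higher and 3 lower at an unadjusted p under 0.05, the third lower gene being the nuclear receptor gene Rora at -0.15 ± 0.07. In clock output, Tef averaged 154 ± 25.6 CPM in sham and 208 ± 39.3 CPM after removal (0.43 ± 0.15). Dbp, picked with its values known, was at 52.9, 15.3, 95.3, 82.5 and 49.7 CPM in sham and 106, 83.6, 93.3, 131 and 97.4 CPM after removal, with sham liver 2 the lowest of all. Insig2, which holds the SREBP complex in the endoplasmic reticulum, read 318, 201, 217, 253 and 226 CPM in sham and 117, 177, 103, 109 and 152 CPM after removal. Its groups did not overlap (-0.88 ± 0.17, DESeq2 adjusted p = 5.53e-04).

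Genes of the type I interferon response, which block viral replication, had lower means after removal in all 34 members tested, and much of that came with 1 sham liver. At an unadjusted p under 0.05 25 were lower, with a median of -1.23, but without sham liver 5 the count was 10 and the median -0.37. Without VAT removed liver 2, 3 or 4 the count was 7, 10 or 14. In 5 of the 34 members, Rsad2 and Dhx58 among them, every VAT removed liver was below every sham liver. The mean log2 level of the list, relative to the sham mean, overlapped between groups. It was -0.58 and -0.505 in VAT removed livers 1 and 5, above the -0.66, -0.61 and -0.67 of sham livers 1, 3 and 4. Rsad2 (viperin) read 19.4, 39.5, 18.2, 18.4 and 257 CPM in sham and 16.7, 8.81, 17.2, 12.3 and 12.9 CPM after removal. Sham liver 5 was the highest by far, and the other sham livers were still above all VAT removed livers, at 18.2 to 39.5 against 8.81 to 17.2 CPM. Dhx58, an RNA sensor gene, was at 21.8, 24.1, 17.1, 21.2 and 72.1 CPM in sham and 13.52, 12.6, 14.3, 15.2 and 15.4 CPM after removal. Its sham livers 1 to 4 were also above every VAT removed liver (-1.14 ± 0.37, edgeR adjusted p = 0.363). Mx1 was at 48.7 CPM in sham liver 5, 2.15 to 7.501 CPM in the other 4 and 2.35 to 3.68 CPM after removal (groups that overlap). edgeR and DESeq2 called 0 and 0 of the list.

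The other immune lists had few members past an unadjusted p under 0.05. Among 29 interferon-gamma GTPase and antigen presentation genes 1 was lower, Irgm1, at 139 CPM in sham liver 5, 46.7 to 62.3 CPM in the other sham livers and 28.7 to 49.1 CPM after removal. The list's median was -0.19 with all livers and 0.11 without sham liver 5. Among 33 macrophage and inflammation genes 0 were higher and 0 lower, and the median of -0.19 was 0.12 without sham liver 5. Gpnmb, a gene of lipid-laden macrophages, was at 5.35, 65.5, 11.6, 4.73 and 39.1 CPM in sham and 2.65, 19.4, 1.92, 4.49 and 14.3 CPM after removal, high in sham livers 2 and 5. Kupffer cells are the resident macrophages of the liver, and 12 of 12 of their markers had higher means, 2 at an unadjusted p under 0.05. Their median was 0.33 with all livers and -0.04 without VAT removed liver 1, and their summed level ran over 337 to 708 CPM in sham livers and 463 to 1005 CPM after removal. Marco was at 126 CPM in VAT removed liver 1 and 0.504 to 8.41 CPM in the other 4, against 0.401 to 32.6 CPM in sham, while Clec4f averaged 44.6 ± 15.8 CPM in sham and 76.6 ± 22.5 CPM after removal. In whole liver, fewer cells of a type and less RNA per cell cannot be told apart.

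**Figure D4:**
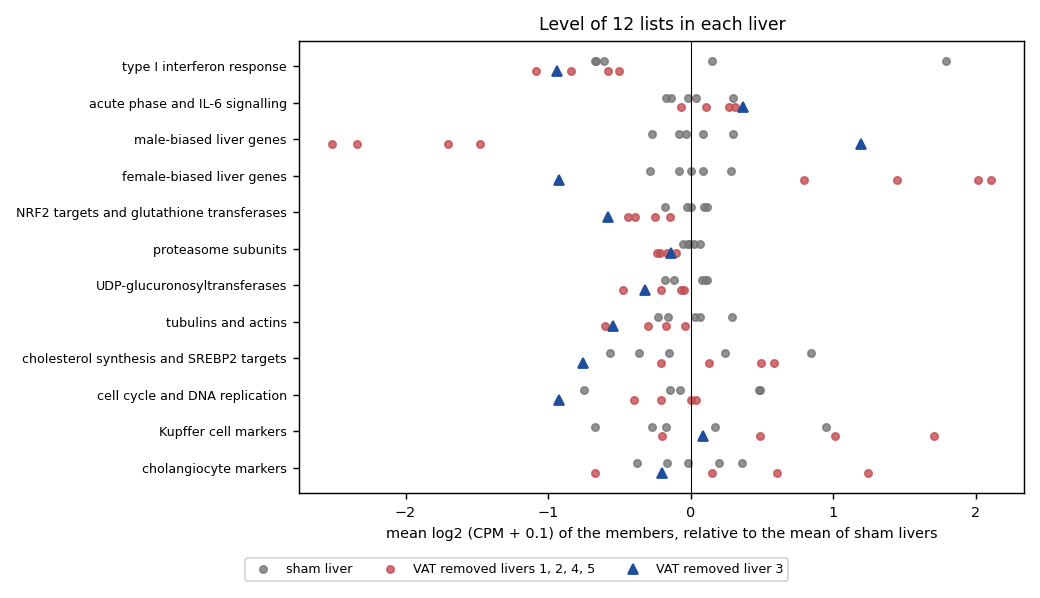
Mean log2 (CPM + 0.1) of the members of 12 lists in each liver, relative to the mean of the 5 sham livers. Grey points are sham livers, red points VAT removed livers 1, 2, 4 and 5, and blue triangles VAT removed liver 3; sham liver 5 stands out at 1.79 for type I interferon genes and VAT removed liver 3 at 1.19 for male-biased genes.

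Of 39 acute phase and interleukin-6 pathway genes, all of which passed the filter, 8 were higher and 0 lower at an unadjusted p under 0.05 (5 higher without VAT removed liver 1, 2 lower without liver 3), and 4 did not overlap between groups, at a median of 0.15. Itih4 read 1872, 1429, 1657, 1831 and 1567 CPM in sham and 3731, 1878, 2817, 2059 and 2060.2 CPM after removal. VAT removed liver 1 was the highest and liver 2 the nearest to sham (0.59 ± 0.18). Its relative Itih2, which encodes a heavy chain that binds hyaluronan, averaged 869 ± 52.5 CPM in sham and 1087 ± 96.4 CPM after removal (0.32 ± 0.09, DESeq2 adjusted p = 0.0112). Apcs, serum amyloid P, was at 23.6 to 35.6 CPM in sham and 36.3 to 56.6 CPM after removal (0.55 ± 0.14), and the fibrinogen chain gene Fgb at 1434 to 2191 and 2205 to 3529.7 CPM. Of 49 complement and coagulation genes tested 6 were higher and 1 lower (3 higher without VAT removed liver 1, 10 without liver 2, and 4 higher and 5 lower without liver 3). C3, the central complement protein, was at 6433, 7859, 6982, 6197 and 7341 CPM in sham and 12557, 6628, 11966, 9042 and 9109 CPM after removal, with liver 2 inside the sham range (0.50 ± 0.17). Prothrombin (F2), picked with its values known, was at 1382 to 1603 CPM in sham and 1669.5 to 1875 CPM after removal, and Kng2, a kininogen gene, differed by 0.33 ± 0.10. The lower member was C4bp, the gene of an inhibitor of complement, with 426 to 480.1 CPM in sham and 322 to 415 CPM after removal (-0.27 ± 0.08).

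Among 37 hepatokine genes tested, which encode proteins that liver sends to other organs, 6 were higher and 3 lower at an unadjusted p under 0.05 (3 higher without VAT removed liver 3; 5 lower without sham liver 5, and 1 without sham liver 1 or VAT removed liver 4). Fgl1, described above, and Hamp2 led the higher side. Hamp2, a copy of the hepcidin gene, read 14.1, 25.3, 8.79, 16.7 and 13.6 CPM in sham and 83.0, 42.1, 35.6, 148 and 42.0 CPM after removal. All VAT removed livers were above sham, livers 1 and 4 the most (2.16 ± 0.44, DESeq2 adjusted p = 3.69e-05). Smoc1, a matricellular protein gene, averaged 146 ± 18.4 CPM in sham and 186 ± 24.7 CPM after removal (0.35 ± 0.11). Tsku was on the lower side, at 132, 350.5, 122, 99.6 and 235 CPM in sham and 30.5, 80.0, 105, 49.1 and 118 CPM after removal, with sham livers 2 and 5 the highest (-1.29 ± 0.44). In metal handling 5 of 45 genes were higher and 2 lower (3 higher without sham liver 1 or VAT removed liver 5, and 4 higher and 6 lower without sham liver 5). Mt1, a zinc-binding metallothionein gene, was at 11.4, 12.1, 29.3, 27.8 and 58.1 CPM in sham and 98.2, 63.2, 71.97, 57.0 and 83.4 CPM after removal, with sham liver 5 above VAT removed liver 4 (1.43 ± 0.41, DESeq2 adjusted p = 0.0208). The zinc importer Slc39a14 differed by 0.44 ± 0.13 and the biliverdin reductase Blvrb by -0.34 ± 0.09.

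Lipid synthesis lists had few members past an unadjusted p under 0.05. At an unadjusted p under 0.05 the 31 genes of fatty acid and triglyceride synthesis had 0 higher and 1 lower (Agpat2, which makes phosphatidic acid, at -0.37 ± 0.14), and the 27 genes of cholesterol synthesis 0 and 0. DESeq2 called 0 in either list. The cholesterol list varied between livers of 1 group, from -0.57 in sham liver 2 to 0.84 in sham liver 3 and from -0.76 in VAT removed liver 3 to 0.58 in liver 5 on its mean log2 scale. The fatty acid and triglyceride list also varied on that scale, from -0.30 to 0.23 in sham livers and from -0.60 to 0.48 after removal. In fatty acid oxidation 4 of 49 genes were higher and 3 lower, counts that moved with single livers left out, from 1 higher without sham liver 5 or VAT removed liver 4 to 8 without VAT removed liver 3, and between 1 and 4 lower. Cyp4a14, a PPAR-alpha target, averaged 281 ± 96.4 CPM in sham and 542 ± 274 CPM after removal (0.95 ± 0.36). In the list of droplets, uptake and lipolysis 3 of 30 were higher and 1 lower, Slc27a1 the one without overlap. Fabp5, a fatty acid binding protein gene, was at 3.48, 10.8, 10.6, 5.55 and 6.93 CPM in sham and 10.0, 36.1, 4.34, 22.8 and 25.4 CPM after removal, with VAT removed livers 1 and 3 in the sham range (1.40 ± 0.52). Vldlr, a lipoprotein receptor gene, averaged 9.07 ± 4.06 CPM in sham and 20.4 ± 7.97 CPM after removal (1.18 ± 0.35), Tm6sf2, which acts in very low density lipoprotein export, differed by 0.64 ± 0.19, and Apoc2, the activator of lipoprotein lipase, by -0.50 ± 0.15. Apolipoprotein and lipoprotein genes had 2 higher and 1 lower of 32, and nuclear receptors of the liver 2 and 1 of 35. Without VAT removed liver 2 the higher counts were 6 and 6, and for nuclear receptors they were also 6 without liver 3 and 5 without sham liver 2 or 4.

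In bile acid synthesis and transport 1 of 32 genes was higher and 3 lower (5 lower without sham liver 5, 7 without VAT removed liver 3). Abcb4, the phospholipid flippase of the bile canaliculus, read 474, 392, 404, 433 and 401 CPM in sham and 328, 340.5, 271, 323 and 379 CPM after removal. All 5 VAT removed values were below sham, with the nearest at 379 and 392 CPM (-0.36 ± 0.10, DESeq2 adjusted p = 0.0313). Of 27 insulin signalling genes 2 were higher and 1 lower. Irs2, a substrate of the insulin receptor, was at 30.7, 31.0, 26.4, 27.3 and 25.3 CPM in sham and 73.2, 33.6, 42.3, 64.2 and 43.9 CPM after removal. Liver 2 of the VAT removed group was the closest to sham (0.87 ± 0.19, edgeR adjusted p = 0.243, DESeq2 0.00548). The insulin receptor gene Insr differed by 0.23 ± 0.09, and Ide, the insulin-degrading enzyme, was at 154 to 172 CPM in sham and 122 to 153 CPM after removal (-0.31 ± 0.08). Of 36 genes of glucose production and glycolysis 2 were higher and 0 lower, and of 55 genes of amino acid catabolism 0 and 2. Both lists moved with single livers: the glucose list had 0 higher with any of sham liver 1 and VAT removed livers 4 and 5 left out, and 3 lower with sham liver 5 left out. The amino acid list had 5 higher and 0 lower without VAT removed liver 2, 0 and 6 without liver 3, and 0 lower with any of sham livers 1 and 4 and VAT removed livers 4 and 5 left out.

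Among 29 Polycomb and silencer genes 2 were higher and 0 lower at an unadjusted p under 0.05, and Cbx7 had the largest difference of the list. The other was Jarid2, a cofactor of Polycomb repressive complex 2, at 25.5 to 27.8 CPM in sham and 28.6 to 32.0 CPM after removal (0.18 ± 0.06). Of 19 imprinted genes tested 3 were higher and 1 lower. H19, a maternally expressed long RNA, read 0.703, 2.61, 6.38, 0.978 and 0.812 CPM in sham and 0.895, 49.7, 1.21, 4.38 and 37.1 CPM after removal, high in VAT removed livers 2 and 5 (3.04 ± 1.17). Meg3, another maternally expressed long RNA, was at 1.13 to 1.60 CPM in sham and 0.605 to 0.944 CPM after removal (-0.75 ± 0.21). The imprinted count on the higher side was 0 or 1 when any of sham livers 1, 3, 4 and 5 and VAT removed livers 4 and 5 was left out. In extracellular matrix 2 of 29 were higher, the membrane protease Mmp14 at 0.37 ± 0.10 and fibronectin (Fn1) at 0.35 ± 0.13. Cell cycle genes had lower means in 32 of 37, 1 at an unadjusted p under 0.05 (10 without sham liver 1, and 0 with any of sham liver 2 and VAT removed livers 1 and 4 left out). It was Rrm2, a ribonucleotide reductase gene, at 5.10 to 24.8 CPM in sham and 3.11 to 8.49 CPM after removal. In endoplasmic reticulum stress 29 of 33 had lower means, 1 was higher and 0 lower at an unadjusted p under 0.05 in edgeR and DESeq2 called 1 higher and 0 lower. The lower count was 11 when VAT removed liver 3 was left out, at a median of -0.27 against -0.16 with all livers, and 7 without sham liver 2. Cytosolic heat shock genes had 0 and 3 of 23, and nuclear-encoded oxidative phosphorylation 0 and 2 of 48 (4 lower without sham liver 5).

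**Figure D5:**
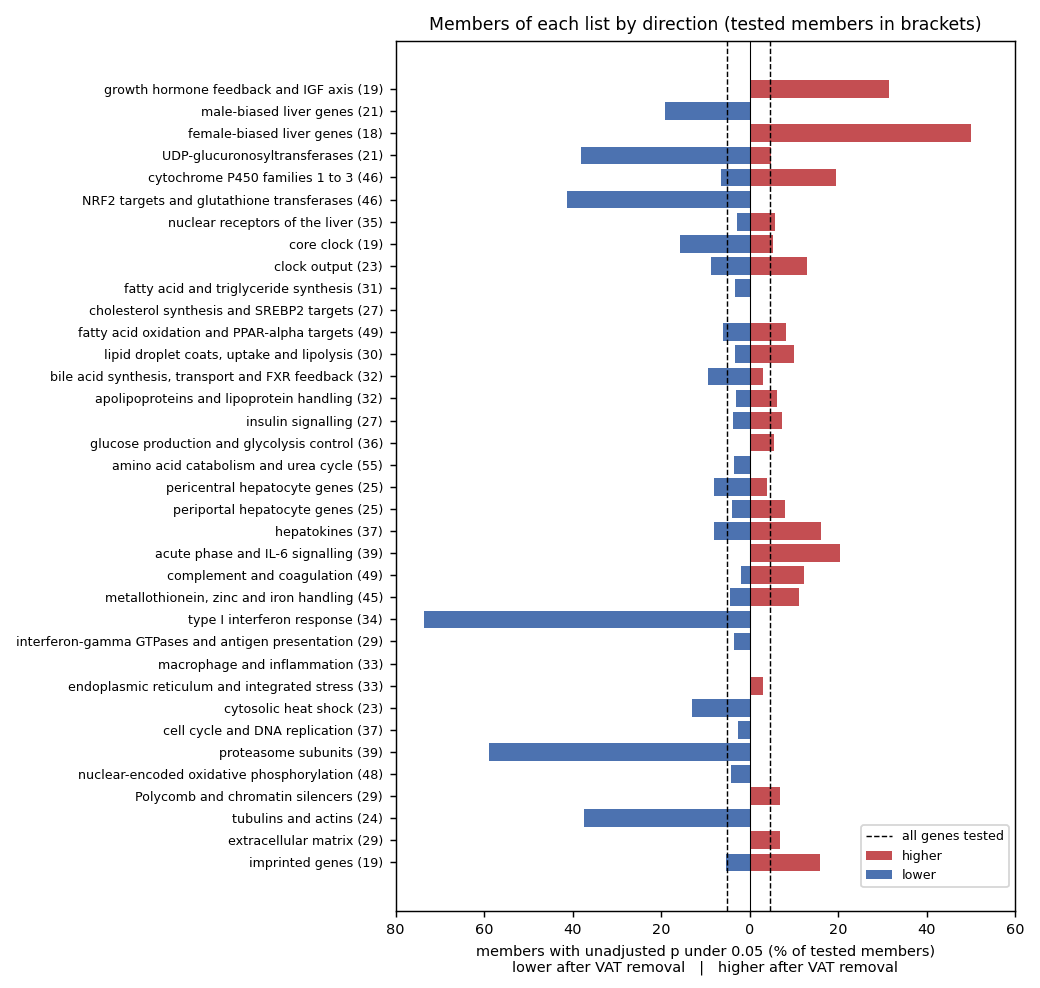
Percent of the tested members of each of 36 lists with an unadjusted p under 0.05, higher (red, right) or lower (blue, left) after VAT removal, with the number tested in brackets. Dashed lines mark the share over all genes tested, 4.68% higher and 5.22% lower. Interferon, proteasome, NRF2, glucuronosyltransferase and tubulin lists extend furthest to the left and female-biased genes furthest to the right. The lists were chosen with earlier results of these data known.

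Markers of the cell types that whole liver holds were compared because their shares could move with the groups above. The list of hepatocyte markers, which also holds Socs2, Cbx7 and Ugt2b35 although they do not define the cell type, had summed levels of 70796 to 93102 CPM in sham livers and 73848 to 87368 CPM after removal. Alb has a large part in that sum. At an unadjusted p under 0.05 5 of the 15 were higher and 1 lower, with a median of -0.04. The higher count was 3 with any of sham livers 1 and 5 and VAT removed livers 4 and 5 left out, and 2 were lower without VAT removed liver 3. Liver endothelial markers, not all of them sinusoidal, had 3 of 15 higher at an unadjusted p under 0.05 (1 with any of sham livers 1 and 2 and VAT removed liver 2 left out) with a median of 0.17 and sums of 749 to 901 CPM in sham livers and 777 to 1048 CPM after removal. Stab2, a scavenger receptor gene of sinusoidal endothelial cells, averaged 131 ± 19.7 CPM in sham and 165 ± 22.5 CPM after removal (0.33 ± 0.12). Stellate markers had a median of 0.18 (0.04 without VAT removed liver 2, 0.27 without liver 1) and sums of 636 to 891 CPM in sham livers and 633 to 1096 CPM after removal, and cholangiocyte markers 0.44 (0.05 without VAT removed liver 2) and sums of 269 to 393 CPM in sham livers and 209 to 578 CPM after removal. Lymphocyte markers had a median of 0.41 (-0.15 without VAT removed liver 5) and 3 higher and 1 lower of 15 (1 higher without VAT removed liver 1, 5 without liver 4) and sums of 27.8 to 70.2 CPM in sham livers and 37.4 to 93.7 CPM after removal. Of the 13 pancreatic markers 4, Cpa1, Prss2, Pnlip and Try4, were at 0 counts in all 10 livers. Neutrophil, erythroid, adipocyte, pancreatic and skeletal muscle lists had 0 members past an unadjusted p under 0.05 in either direction in edgeR and 0 called by DESeq2, over 2, 8, 6, 1 and 1 members tested. The erythroid count was 5 lower when VAT removed liver 2 was left out, at a median of -0.35, and the summed erythroid level was 480.2 CPM in that liver and 306 to 354 CPM in sham. Pericentral hepatocyte genes had 1 higher and 2 lower of 25 and periportal genes 2 and 1 of 25, and both moved with single livers, to 0 lower pericentral with any of sham liver 2 and VAT removed livers 1 and 3 left out, and 4 higher periportal with VAT removed liver 2 left out. Mitochondrially encoded transcripts had 0 of 13 past an unadjusted p under 0.05 in edgeR and 0 called by DESeq2, and immediate early genes, which respond to handling, 0 higher and 2 lower of 20 (0 lower without sham liver 5 or VAT removed liver 4). The part of cell mixture in the differences above was not tested.

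By annotated gene type, few long noncoding RNAs were on the lower side. Of 357 lincRNA genes tested 25 (7%) were higher and 4 (1.12%) lower at an unadjusted p under 0.05, against 4.68% and 5.22% of all genes, of 707 antisense genes 31 (4.38%) and 7 (0.99%), and of 238 genes of other processed transcripts 21 (8.82%) and 3 (1.26%). The 13882 protein-coding genes had 654 (4.71%) higher and 832 (5.99%) lower. The strand setting of the counting was not given in the sources used here, and an antisense gene and its partner cannot be told apart.

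Values in the subcutaneous fat of the study are set beside those of liver. Of the 15 higher genes of smallest p in liver 12 were tested in fat, 5 with a higher and 7 with a lower mean, and of the 15 lower genes 14, 7 higher and 7 lower. Means of some leading genes differed in the same direction in fat: Amigo2 by 0.37 ± 0.14 in fat and 0.83 ± 0.15 in liver, Slc27a1 by 0.29 ± 0.27 and 0.79 ± 0.13, Serp1 by -0.26 ± 0.08 and -0.44 ± 0.08, and Gclc by -0.28 ± 0.11 and -0.56 ± 0.11. The log2 difference in fat was -0.44 ± 0.25 for Socs2 and -0.42 ± 0.45 for Cish, against 1.77 ± 0.31 and 1.63 ± 0.32 in liver, and -0.64 ± 0.40 for Cbx7 and -0.64 ± 0.42 for Pced1b, against 0.87 ± 0.12 and 0.79 ± 0.13. For Tubb2a and Tubb4b it was 0.23 ± 0.15 and 0.22 ± 0.12 against -1.38 ± 0.34 and -0.83 ± 0.14, and for Psmd7 and Gsr 0.07 ± 0.12 and 0.01 ± 0.08 against -0.29 ± 0.06 and -0.32 ± 0.07. A test of the difference between the tissues in edgeR called 0 of 19954 genes (2021 at an unadjusted p under 0.05), and its adjusted p was 0.246 for Socs2, 0.246 for Tubb4b and 0.313 for Cbx7, while DESeq2 called 124 genes. That test treats liver and fat libraries as separate mice, which the labels do not settle.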

How the data were processed

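Total RNA of the livers, depleted of ribosomal RNA, was sequenced by the authors, who deposited raw read counts per gene as whole numbers. Per the submitters' processing notes the tools were bcl2fastq, STAR 2.5.1a and featureCounts 1.46 (Subread) with GRCm38. The annotation, the strand setting and the treatment of multimapping reads were not given in the sources used here. Of 40757 entries 317 exact repeats were dropped, 117 symbols were shared by 235 entries with different counts and were kept apart, and 26 symbols had been turned into dates. Liver libraries held 29040414 to 34277426 counts in sham and 20307159 to 37572706 after removal.

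Counts were filtered with filterByExpr, scaled by TMM and fitted with edgeR 4.0.16 (robust quasi-likelihood F test, R 4.3.3), with the 5 sham and 5 VAT removed livers alone and Benjamini-Hochberg adjustment over 17078 genes. DESeq2 1.42.0 and limma-voom 3.58.1 were alternatives. Differences are log2 VAT removed minus sham with SE, and CPM values are TMM-scaled. Coordinates are from the GENCODE M21 annotation of GRCm38 by gene symbol. The fit was first tested on simulated data. There it called 22.4% of genes changed 1.5-fold, 62.7% of those changed 2-fold and 81.8% of those changed 4-fold, with 3 false calls. Most simulated 1.5-fold changes were thus missed.

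Named genes were the 15 of smallest p in each direction with a mean of at least 1 CPM, the given markers, up to 4 members of each list by p, and the 8 of largest SD within each group. Genes outside this rule are marked as such. The lists and the genes on them were chosen with earlier results of these data known. Some genes are on several lists, as Cux2 is on the growth hormone and female-biased lists.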

Additional observations from a re-analysis of the deposited data

Results flagged for a closer look

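Each of 292 sets of 5 liver values of a gene was examined for 1 library far from the other 4 on log2 (CPM + 0.1), by a gap of more than 0.71 of the whole range. A total of 25 were found, 14 of them in VAT removed liver 3. Chance flags about 1 in 20 sets, but these genes were named partly for a large spread or with their values known, so the number is not read against that rate. In that liver the high values were Serpina1e at 3912 CPM, Egfr at 995.9 CPM, Acox2 (a peroxisomal oxidase of bile acid precursors) at 248.002 CPM, Serpina4-ps1 at 94.2 CPM, Elovl3 at 79.8 CPM, Mup7 at 63.2 CPM, Mup11 at 58.1 CPM, Hsd3b5 at 47.8 CPM and Mup14 at 29.2 CPM. Its low values were Nfe2l2 at 63.8 CPM, Gas6 at 59.6 CPM, Ugt1a5 at 23.9 CPM, Nt5e at 11.1 CPM and Slc22a27 at 2.37 CPM.

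Sham liver 5 stood apart on the high side for the interferon-induced genes Irgm1 (138.5 CPM), Dhx58 (72.1 CPM) and Ifi35 (36.9 CPM) and for glutathione reductase, Gsr (107.1 CPM). The other 7 values were spread over 6 libraries. VAT removed liver 5 was high for Ephx1 (364.5 CPM) and Psmd14 (32.0 CPM), VAT removed liver 1 was high for Camkk2 (20.3 CPM), and sham liver 1 was high for Psmc2 (62.1 CPM). VAT removed liver 4 was low for Ikbkg (58.4 CPM), VAT removed liver 2 was low for Igfals (43.7 CPM), and sham liver 2 was low for Fgb (1434 CPM).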

How the results depend on the processing

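Against 0 genes called higher and 0 lower by edgeR, DESeq2 called 89 and 131, limma-voom 1 and 2, voom with sample weights 4 and 4, edgeR without a filter 1 and 2, with at least 1 CPM in 5 libraries 1 and 2, in 1 fit of all 20 libraries 16 and 11, without VAT removed liver 3 and sham liver 5 together 10 and 30, and at an adjusted p under 0.10 2 and 2. With 1 liver left out the counts ran from 0 to 16 higher and 0 to 37 lower, the highest without VAT removed liver 3, and at an unadjusted p under 0.05 from 596 to 900 and 649 to 1112. RLE and upper quartile scaling, fitting without robust estimation and leaving out the most abundant genes gave 0 and 0. The difference between liver and subcutaneous fat had 0 genes in edgeR and 124 in DESeq2. The fit with the replicate number as a block called 0 higher and 0 lower, and 0 between tissues. Same-numbered livers had deviations correlated at 0.166, 0.192, -0.144, 0.251 and 0.238. Since 1 of the 5 pairs was not over 0.1 and the labels do not tie the numbers together, they were not taken as pairs, although 7 of 10 livers were closest to their own number, a hint from the data. With the block the lower members of lists at an unadjusted p under 0.05 went from 25 to 11 for interferon, 1 to 7 for cell cycle, 0 to 6 for endoplasmic reticulum stress, 0 to 4 for macrophage genes and 1 to 5 for interferon-gamma GTPases, and the male-biased median from -0.65 to -1.36.

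Genes that VAT removed liver 3 sets apart turned direction. Serpina1e was -1.90 in voom, -2.47 with sample weights, -2.61 with the replicate block and -3.00 without both livers, and Mup11 -2.83, -3.51, -2.61 and -4.58. Serpina4-ps1 was -2.51, -2.61, -2.46 and -3.47, and Egfr -0.32, -0.57, -0.43 and -0.82. Hsd3b5 was -0.64, -1.10 and -2.06 in voom, with weights and without both livers, and Cfd -0.32, -1.48 and -2.17. With 1 liver left out, the log2 difference changed sign for these genes and ran from -0.12 to 0.051 for Alb, from -0.16 to 0.024 for Ghr, from -0.048 to 0.0095 for Stat5b, from -3.13 to 1.60 for Serpina1e, from -4.91 to 0.96 for Mup7, from -1.97 to 4.17 for Hsd3b5, from -4.38 to 1.10 for Mup11, from -3.44 to 2.01 for Serpina4-ps1, from -0.0097 to 1.52 for Cyp2a4, from -0.99 to 4.77 for Marco, from -0.36 to 1.48 for Cd163, from -1.89 to 1.42 for Cfd, from -2.57 to 0.22 for Slco1a1 and from -0.89 to 0.35 for Egfr. Where the setting itself does not show it, the cause was not tested. Of 146 named genes over the other settings 1610 values kept direction and side of the threshold, 116 newly passed it and 22 reversed. The median of mitochondrially encoded transcripts has no value where those genes were left out. Genes near the low-count filter have the least depth behind their values.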
